A study of Mus musculus with 6 samples.

Results

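The genes described here encode Ras GTPases and the proteins that switch them directly, 9 genes of the 53379 in the deposited table, chosen by name. They are the GTPases *Hras*, *Nras*, *Rras*, *Rras2* and *Mras*, the exchange factor *Sos1* with its adaptor *Grb2*, and the GTPase-activating proteins (GAPs) *Nf1* and *Rasa1*. Each name matched 1 row. RNA-seq was performed on neural stem cells (NSCs), dividing precursors of neurons and glia. They were derived from the telencephalic cortex of *Tbl1xr1* flox/flox mouse embryos at E14.5. The paper routinely kept NSCs as neurospheres with EGF and basic FGF, and used adherent cultures for some assays. All cells came from such floxed embryos and received a lentivirus, and sorted GFP-positive cells were used. The paper used Cre to generate knock-out cells. Control cells (3 libraries, replicates 1, 1_1 and 2) received GFP only, and the others (3 libraries, replicates 2, 2_2 and 3) received Cre with GFP. The sources used here do not say which embryo or culture each library came from, and p-values therefore measure the spread between these libraries, which may be technical.

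Ras GTPases are small membrane-bound switches below growth factor receptors. Upon activation of a receptor such as that for EGF, the adaptor GRB2 brings SOS1 to the membrane, where it loads Ras with GTP, and GTP-bound Ras activates the RAF, MEK and ERK kinases. NF1 and RASA1 speed up the hydrolysis of GTP and turn Ras off. In cultured NSCs this cascade is known to carry the mitogen signal that drives division.

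The number of reads on genes, recovered from the normalized counts, ran from 7510615 to 11161497 in control and from 11893230 to 14828100 in the Cre-labelled libraries, so every Cre-labelled library was the deeper. Values per library are given with control replicates ordered as 1, 1_1, 2 and Cre replicates as 2, 2_2, 3. A normalized count is the read count of a gene divided by 1 size factor per library. *Tbl1xr1* itself, counted over the whole gene, had 2522, 2190 and 2721 normalized counts in control and 3774, 3463 and 2905 in the Cre-labelled libraries. It was not lower after Cre (log2 fold change 0.45, standard error 0.14, limma adjusted p = 0.06), and a count over the whole gene does not measure the deleted part. For its sorted cells, the paper reports genotyping by PCR and the absence of *Tbl1xr1* mRNA by RT-qPCR and of the protein by Western blot. The deletion itself was not measured in these libraries, and the second group is called the libraries labelled Cre, or Cre-labelled libraries. All 10 neural stem cell markers passed the filter on low counts, and their summed level overlapped between the groups, from 38962 to 42730 normalized counts in control and from 39460.5 to 41481 in the Cre-labelled libraries. Only *Nes* among them passed the test, and it was lower (log2 fold change -0.85, limma adjusted p = 0.00384). The sum covers shifts both ways, with 6 markers having a positive and 4 a negative log2 fold change. The groups did not overlap for 4 of the 10, beside 30.3% of all tested genes. *Nes* and *Vim* were the lower 2 and *Pax6* and *Slc1a3* the higher 2. Of the 10 microglia markers only *Csf1r* passed the filter, 8 had at most 3 reads in any library, and *Tmem119*, *C1qa*, *C1qb* and *Tyrobp* had none. The endothelial markers *Cdh5* and *Cldn5* and the mesenchymal markers *Col1a2*, *Pdgfrb* and *Twist1* had none as well. Of the 10 listed of each, the endothelial *Eng* and *Kdr* and the mesenchymal *Thy1* passed the filter. Their means were 86.2, 24.5 and 21.9 normalized counts in control and 38.5, 8.74 and 22.8 in the Cre-labelled libraries. The mesenchymal *Col1a1* had 9 and 7 reads in Cre replicates 2_2 and 3 and none elsewhere.

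Among the 9 genes, only *Hras* and *Mras* had an adjusted p-value under 0.05, with *Hras* lower and *Mras* higher in the Cre-labelled libraries, and the other 7 did not pass. Both changes were about the same size on the log2 scale and opposite in direction, so the members did not move one way. The test was limma on log2(normalized count + 1) over the 14840 genes with a mean of at least 10, a filter that all 9 members passed, with Benjamini-Hochberg adjustment over all of them. It called 9.96% of all tested genes, 4.74% as higher and 5.22% as lower. The 2 calls of 9 are 22.2%, a share that rests on 1 gene in each direction. The groups did not overlap for *Hras*, *Mras*, *Grb2* and *Nf1*, 4 of 9 genes, beside 30.3% of all tested genes. The median log2 fold change was 0.16 over the members and -0.001 over all tested genes. An exact permutation test on these few libraries can reach no p below 0.1.

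**Figure D1:**
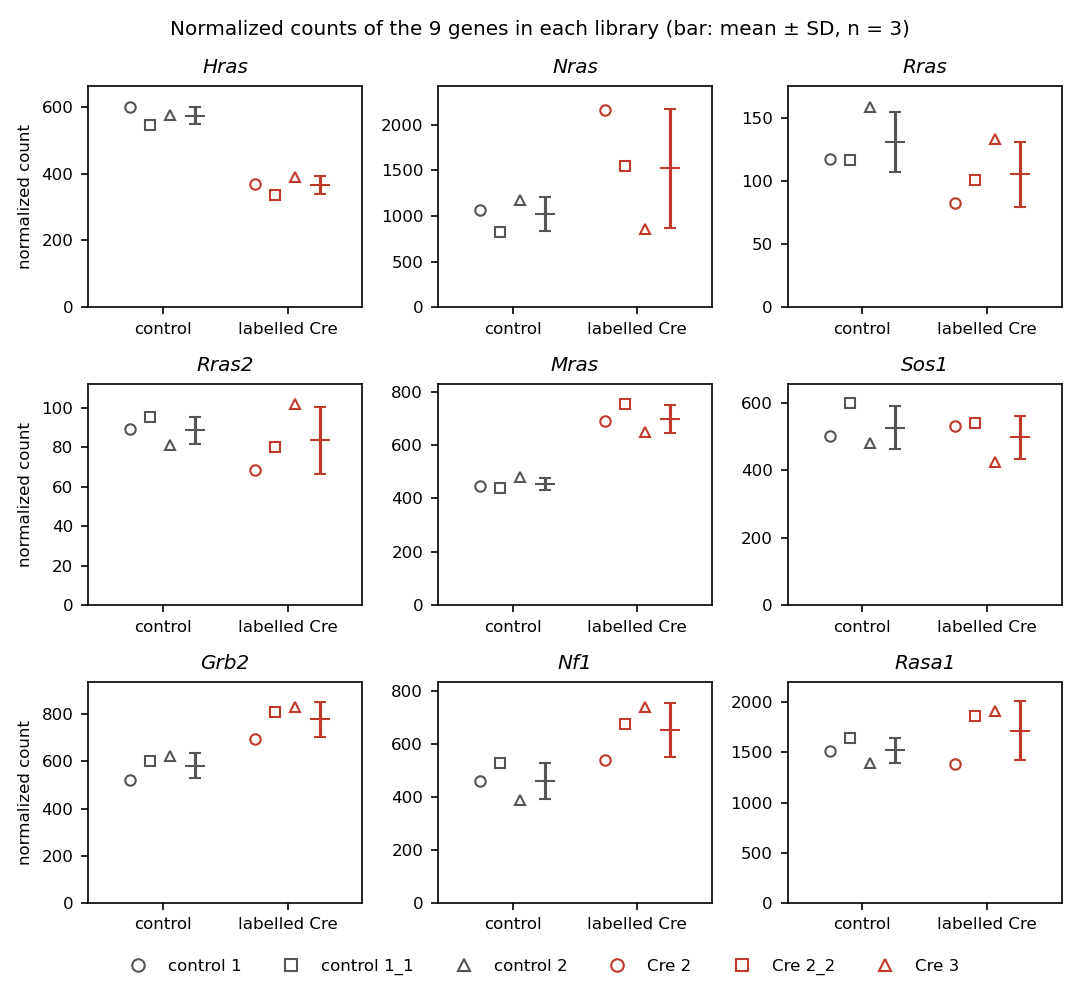
Normalized counts (vertical axes, each from 0) of the 9 genes in the 3 control libraries (grey) and the 3 Cre-labelled libraries (red). Each symbol is 1 library, bars are mean ± SD (n = 3), and like symbols in both groups do not pair libraries. The groups are apart for *Hras*, *Mras*, *Grb2* and *Nf1*, and the 3 Cre-labelled libraries are far from each other for *Nras*.

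*Hras* (ENSMUSG00000025499, chromosome 7 of GRCm38, from 141189934 to 141194019) encodes the Harvey Ras GTPase, which lies on the inner face of the plasma membrane. It reached 598 normalized counts in control replicate 1, 546 in 1_1 and 576 in 2. In Cre replicates 2, 2_2 and 3 it reached 369.8, 336 and 389. Every Cre-labelled library was below every control library, and the libraries of each group were close to each other. The control mean was 573 ± 26.5 (SD, n = 3) against 365 ± 27.2 (SD, n = 3) after Cre. The log2 fold change was -0.65 (standard error 0.13, 95% interval -0.93 to -0.37, limma adjusted p = 0.00933), a level of 0.637 times that of control.

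*Mras* (ENSMUSG00000032470, chromosome 9 of GRCm38, from 99385420 to 99437700) encodes a related GTPase that binds the scaffold SHOC2 and a phosphatase to release RAF from its inhibited state. It had 445, 437 and 479 normalized counts in control and 691, 752 and 647 in the Cre-labelled libraries. Here the Cre-labelled libraries were all above control. The control mean was 454 ± 22.0 (SD, n = 3) against 697 ± 52.3 (SD, n = 3) after Cre, with a log2 fold change of 0.62 (standard error 0.12, 95% interval 0.34 to 0.89, limma adjusted p = 0.0108) or 1.53 times control. Neither call held without control replicate 1, although the log2 fold changes were then -0.62 for *Hras* and 0.60 for *Mras*. The limma adjusted p was 0.0668 for *Hras* and 0.0662 for *Mras*, in a fit that called 3.76% of all tested genes. With control replicates 1 and 1_1 averaged it was 0.0405 for *Hras* and 0.0525 for *Mras*, in a fit that called 4.45% of all tested genes. *Mras* also missed the threshold without control replicate 1_1 (0.0523, with 4.74% of all tested genes called) and without Cre replicate 2_2 (0.0565, with 4.88%). With edgeR on the recovered reads, which called 9.99% of all tested genes, the adjusted p was 0.00935 for *Hras* and 0.0104 for *Mras*.

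The bases before the start of these 2 genes are shown because they are the members past the threshold, in opposite directions. They are RefSeq windows of GRCm38.p6, 250 bases long and on the minus strand, at chr7:141194005-141194254 for *Hras* and chr9:99436713-99436962 for *Mras*. The window of *Mras* lies within the annotated span of the gene and that of *Hras* overlaps it. Capitals mark GGGCGG or its reverse complement, the letters of a GC box, which SP1-like factors bind.
Hras: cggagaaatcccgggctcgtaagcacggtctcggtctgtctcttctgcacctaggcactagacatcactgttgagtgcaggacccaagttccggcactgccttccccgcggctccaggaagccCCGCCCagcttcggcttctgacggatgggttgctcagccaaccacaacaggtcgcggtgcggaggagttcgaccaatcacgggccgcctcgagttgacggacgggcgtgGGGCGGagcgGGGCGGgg
Mras: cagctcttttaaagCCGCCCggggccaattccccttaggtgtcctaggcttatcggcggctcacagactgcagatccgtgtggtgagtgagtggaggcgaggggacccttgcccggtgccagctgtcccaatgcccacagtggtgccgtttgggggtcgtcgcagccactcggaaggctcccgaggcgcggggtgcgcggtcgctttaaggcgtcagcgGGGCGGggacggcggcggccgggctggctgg
In the window of *Hras* the GC box letters begin 127, 18 and 8 bases before the start. In *Mras* they begin 236 and 31 bases before it. Over 32851 promoter windows of 300 bases (250 before the start and 50 after it), 35.7% held these letters on either strand, and of the 12 windows of the members 6 did. The letters TTCCCGC or TTGGCGC, forms of the site of E2F factors, were found in neither gene. They were found in 1 of the 12 windows of the members, a window of *Grb2*, and in 6.81% of all windows. CCAAT, the NFY site, was found in both genes, in 6 of the 12 windows and in 37.4% of all windows. CACGTG, the MYC site, was found in neither and, among the members, in *Nras* alone (7.15% of all windows).

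**Figure D2:**
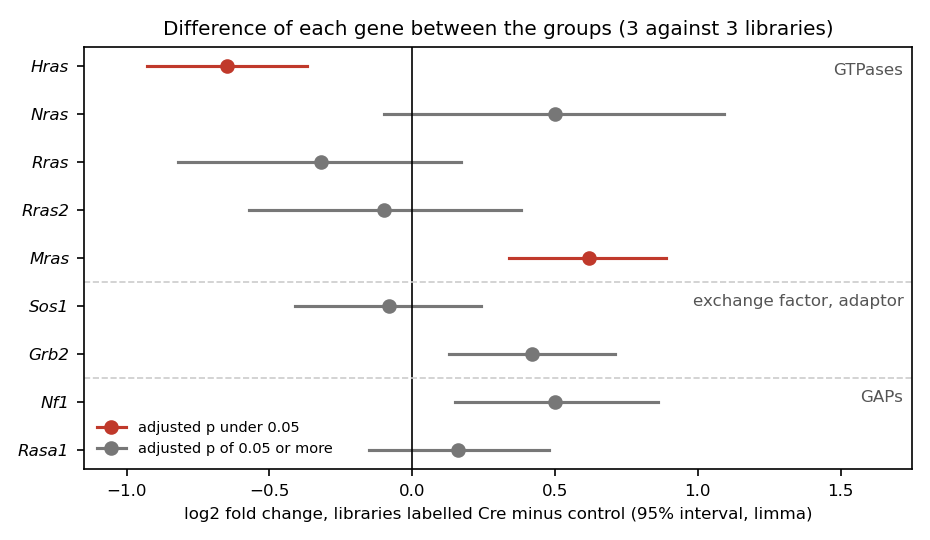
Log2 fold change of each gene (horizontal axis, Cre-labelled libraries minus control) with its 95% interval from limma, grouped by role. *Hras* at -0.65 and *Mras* at 0.62 passed the adjusted threshold (red), and the intervals of *Grb2* and *Nf1* lie above 0 without passing it (grey).

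*Nras* (ENSMUSG00000027852, chromosome 3, from 103058285 to 103067914) encodes a GTPase that shares its effectors with HRAS. It had 1063, 821 and 1176 normalized counts in control and 2165, 1543 and 860.5 in the Cre-labelled libraries. Cre replicates 2 and 2_2 were above all control libraries, and Cre replicate 3 was within the control range. The control mean was 1019.9 ± 182 (SD, n = 3) against 1523 ± 652 (SD, n = 3) after Cre. The log2 fold change of 0.50 did not pass (standard error 0.27, 95% interval -0.10 to 1.09, limma adjusted p = 0.285). Without Cre replicate 3 it was 0.86 with a limma adjusted p of 0.0141, and without Cre replicate 2 it was 0.19 with 0.584, so the call turned on 1 library. On the log2 scale the SD of *Nras* among the Cre-labelled libraries was 0.673, more than in 91.4% of tested genes, whose median was 0.253. In control it was 0.268, beside a median of 0.181.

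The spread of *Hras* and *Mras* was small in both groups. For *Hras* the SD was 0.0668 in control and 0.108 in the Cre-labelled libraries, and for *Mras* 0.0691 and 0.108, all within the lowest 15.3% of tested genes.

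*Rras* (ENSMUSG00000038387, chromosome 7, from 45017942 to 45021646) and *Rras2* (ENSMUSG00000055723, chromosome 7, from 114046782 to 114117781) encode the R-Ras GTPases, of which RRAS is known for acting on integrin adhesion. *Rras* had 117, 117 and 159 normalized counts in control and 82.4, 101 and 133 in the Cre-labelled libraries. *Rras2* had 89.0, 95.1 and 81.4 in control, and 68.6, 80.1 and 102 in the Cre-labelled libraries. In both genes the groups overlapped, and Cre replicate 2 was the lowest library and Cre replicate 3 the highest of its group. The log2 fold changes were -0.32 for *Rras* (95% interval -0.82 to 0.17, limma adjusted p = 0.408) and -0.10 for *Rras2* (-0.57 to 0.38, adjusted p = 0.822). These are the members with the fewest reads, between 61 and 149 in a library.

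Levels of different genes were compared per length, as RPKM, in which the reads of a gene are divided by its exon length and by the reads on genes of the library. In control, *Nras* was highest at 21.1 ± 4.38 (SD, n = 3), followed by *Grb2* at 19.0 ± 1.54 and *Rasa1* at 18.4 ± 1.03, which did not differ beyond their spread. *Hras* came next at 14.6 ± 1.20 in control, then *Rras* at 11.3 ± 2.27 and *Mras* at 9.66 ± 0.722, each overlapping its neighbour, and below them *Sos1* at 5.59 ± 0.470, *Rras2* at 3.70 ± 0.207 and *Nf1* at 2.75 ± 0.332. In the Cre-labelled libraries the order began alike, with *Nras* at 31.6 ± 14.1, *Grb2* at 25.5 ± 1.97 and *Rasa1* at 20.9 ± 3.24. The range of *Nras* overlapped those of *Grb2* and *Rasa1*, which did not overlap each other. *Mras* then stood at 14.9 ± 1.21, above *Hras* at 9.33 ± 0.678 and *Rras* at 9.11 ± 2.07, of which the last 2 overlapped. *Sos1* was at 5.32 ± 0.756, *Nf1* at 3.92 ± 0.548 and *Rras2* at 3.50 ± 0.653, with an overlap of the last 2. *Mras* was thus below *Hras* in control and above it in the Cre-labelled libraries, an order that rests on the GENCODE M1 exon lengths.

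The ratio of the level of *Mras* to that of *Hras*, per length, was 0.621, 0.669 and 0.694 in control and 1.56, 1.87 and 1.39 in the Cre-labelled libraries. It was below 1 in every control library and above 1 in every Cre-labelled library. The ratio of *Nras* to *Hras* was 1.43, 1.21 and 1.65 in control and 4.73, 3.71 and 1.78 in the Cre-labelled libraries. The Cre-labelled libraries were again all above control, although Cre replicate 3 by little. Summed over the 5 GTPase genes, the level per length was 62.0, 51.8 and 67.2 in control and 80.5, 68.3 and 56.4 in the Cre-labelled libraries, and the groups overlapped. The share of *Hras* in this sum was 24.4% ± 1.89 (SD, n = 3) in control and 14.0% ± 2.96 (SD, n = 3) in the Cre-labelled libraries. That of *Mras* was 16.1% ± 0.961 and 22.1% ± 2.93, and that of *Nras* 34.6% ± 3.01 and 44.7% ± 12.9. These sums and ratios are descriptions without a test, and RNA levels do not give the amount of GTP-bound protein.

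**Figure D3:**
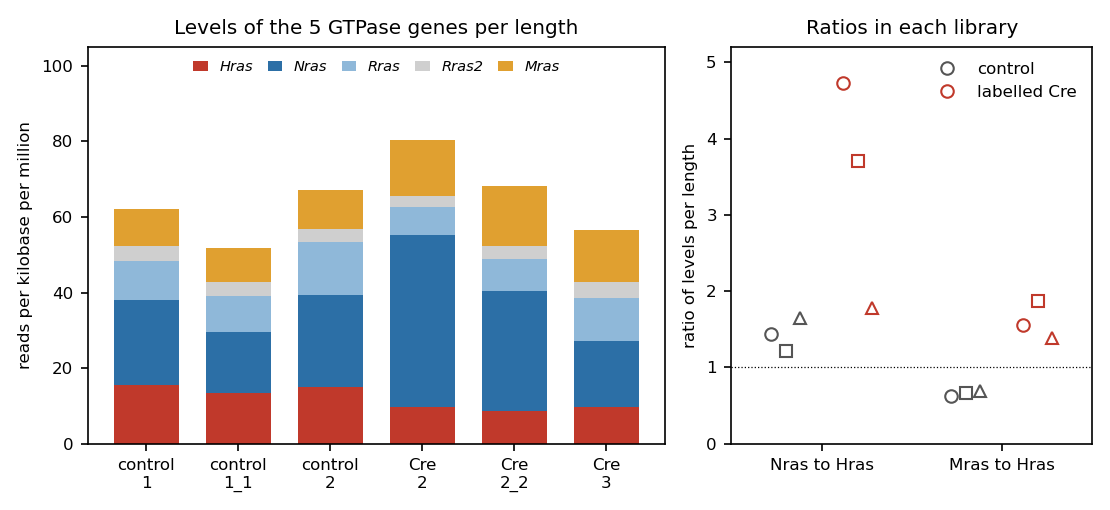
Left, levels of the 5 GTPase genes as RPKM (vertical axis, from 0), stacked for each library. Right, ratio of *Nras* to *Hras* and of *Mras* to *Hras* in each library (control grey, Cre-labelled libraries red, dotted line at 1). *Mras* to *Hras* was from 0.621 to 0.694 in control and from 1.39 to 1.87 in the Cre-labelled libraries.

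Neither the exchange factor nor its adaptor passed the threshold, and their changes were not tested against each other. *Sos1* (ENSMUSG00000024241, chromosome 17, from 80393752 to 80480453), the exchange factor, had 501, 598 and 479 normalized counts in control and 529, 538 and 423 in the Cre-labelled libraries. The groups overlapped, and the log2 fold change was -0.08 (standard error 0.15, 95% interval -0.41 to 0.24, limma adjusted p = 0.771). *Grb2* (ENSMUSG00000059923, chromosome 11, from 115644045 to 115708597), the adaptor that links SOS1 to receptors, had 523, 603 and 621 in control and 695, 810.1 and 833 in the Cre-labelled libraries. No Cre-labelled library came down to the control range, with means of 582 ± 52.2 (SD, n = 3) for control and 779 ± 73.7 (SD, n = 3). The log2 fold change of *Grb2* was 0.42 (standard error 0.13, 95% interval 0.13 to 0.71) with a limma adjusted p of 0.0662, short of the threshold. It passed only without Cre replicate 2 (0.50, limma adjusted p = 0.0218), 1 of 16 alternatives, and its adjusted p ran from 0.0218 to 0.27 over them.

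Among the GAPs, *Nf1* (ENSMUSG00000020716, chromosome 11, from 79339590 to 79581609), which encodes neurofibromin, had 461, 525 and 389 normalized counts in control and 539, 676 and 739.6 in the Cre-labelled libraries. The groups did not overlap, but the lowest Cre-labelled library was close to the highest control. The control mean was 458 ± 67.9 (SD, n = 3) against 652 ± 102 (SD, n = 3) after Cre. The log2 fold change of 0.50 (standard error 0.16, 95% interval 0.15 to 0.86) did not pass, with a limma adjusted p of 0.0699. Over the alternatives the adjusted p ran from 0.0128, without Cre replicate 2, to 0.244, without control replicate 2, and it passed in 1 of 16. Genes that lie inside *Nf1* on the other strand, such as *Omg*, share no exon bases with it in the GENCODE M1 annotation. *Rasa1* (ENSMUSG00000021549, chromosome 13, from 85214699 to 85289486), which binds activated receptors through its SH2 domains, had 1518, 1646 and 1399 in control and 1380.2, 1862 and 1913 in the Cre-labelled libraries. Cre replicate 2 was below all control libraries and the other Cre-labelled libraries above them. The log2 fold change was 0.16 (95% interval -0.15 to 0.48, limma adjusted p = 0.522), and it did not pass under any of the 16 alternatives. *Rasa1* shares 12 exon bases, or 0.153% of its exon length, with *Ccnh* on the other strand.

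Cre replicates 2 and 3 thus stood at opposite ends of their group for several members. Replicate 2 was the highest for *Nras* and the lowest for *Rras*, *Rras2*, *Grb2*, *Nf1* and *Rasa1*, while replicate 3 was the lowest for *Nras*, *Mras* and *Sos1* and the highest for *Hras*, *Rras*, *Rras2*, *Grb2*, *Nf1* and *Rasa1*. The second principal component of all tested genes, with 20.5% of the variance, also placed these 2 libraries farthest apart. Without Cre replicate 2, 4 of the 9 members were called (*Hras*, *Mras*, *Grb2* and *Nf1*), in a fit that called 16.1% of all tested genes. Without Cre replicate 3, *Hras*, *Mras* and *Nras* were called, with 9.68% of all tested genes. Without control replicate 1 no member was called, with 3.76% of all tested genes.

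**Figure D4:**
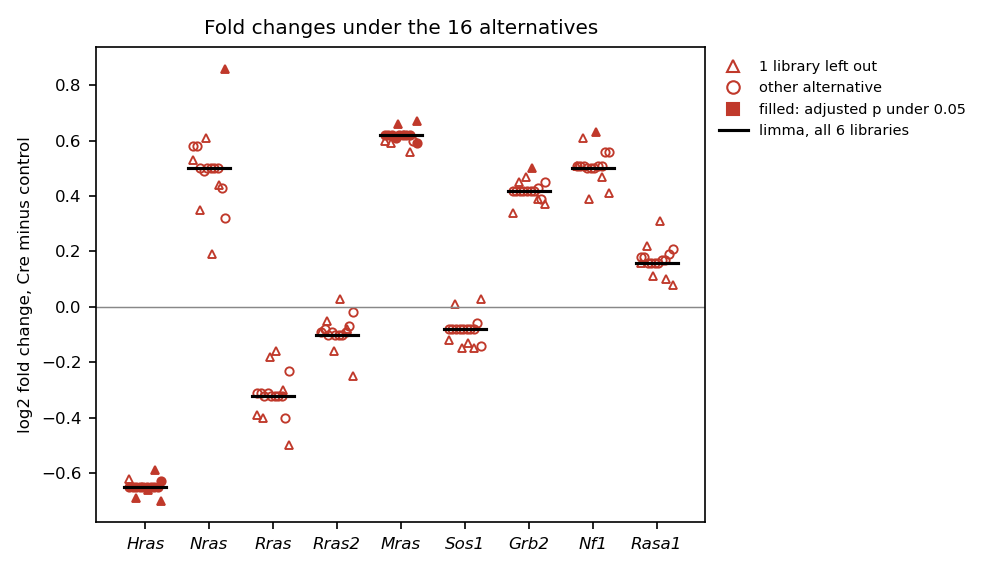
Log2 fold change of each gene (vertical axis, Cre-labelled libraries minus control) under the 16 alternatives. Triangles leave out 1 library, circles are other settings, filled symbols have an adjusted p under 0.05, and the black line is limma with all 6 libraries. *Hras* stays between -0.70 and -0.59 and *Mras* between 0.56 and 0.67, whereas *Nras* runs from 0.19 to 0.86.

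Other genes of the pathway were taken from 7 lists with 83 genes, 65 of which passed the filter on low counts. At an adjusted p-value under 0.05, 2 of these were higher after Cre and 2 lower, or 6.15%, beside 9.96% of all tested genes. Regardless of the threshold, 38 had a positive and 27 a negative log2 fold change, with a median of 0.04. *Shc4*, a receptor adaptor of the SHC family, had 949.8, 854 and 875 normalized counts in control and 1850.5, 1451 and 1117 in the Cre-labelled libraries (log2 fold change 0.69, limma adjusted p = 0.0252). *Rasa3*, a GAP for Ras and Rap, had 1213, 1104 and 1158 in control and 1802, 1594 and 1413 in the Cre-labelled libraries (0.46, limma adjusted p = 0.0389). *Rgl1*, an exchange factor for Ral GTPases and an effector of Ras, was lower, with 301, 414 and 345 in control and 244, 244 and 212 in the Cre-labelled libraries (-0.59, limma adjusted p = 0.0402). *Diras2*, a Ras-like GTPase of the brain, changed most, from 126, 130.2 and 119 in control to 38.8, 21.5 and 35.8 in the Cre-labelled libraries (-1.97, limma adjusted p = 0.00112). In all 4 genes, which were picked by their adjusted p in these same libraries, the groups did not overlap. Over all 65 tested genes of these lists the groups did not overlap for 16, beside 30.3% of all tested genes. *Diras2* passed in all 16 alternatives, *Shc4* in 11, *Rgl1* in 10 and *Rasa3* in 8.

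By list, limma called none of 3 tested exchange factors other than *Sos1*, 1 of 5 other GAPs and 1 of 11 receptor adaptors, of which 10 had a positive log2 fold change, with a median of 0.13. It called none of the 10 genes for the lipid processing and trafficking of Ras, whose log2 fold changes ran from -0.12 to 0.43, and none of 8 scaffolds and modulators. It called 1 of 15 effectors and 1 of 13 Ras-like GTPases. At an unadjusted p under 0.05, which 25.5% of all tested genes had, there were 1 exchange factor, 1 GAP, 3 adaptors, 0 processing genes, 3 modulators, 4 effectors and 5 Ras-like GTPases, 17 of 65 in all.

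**Figure D5:**
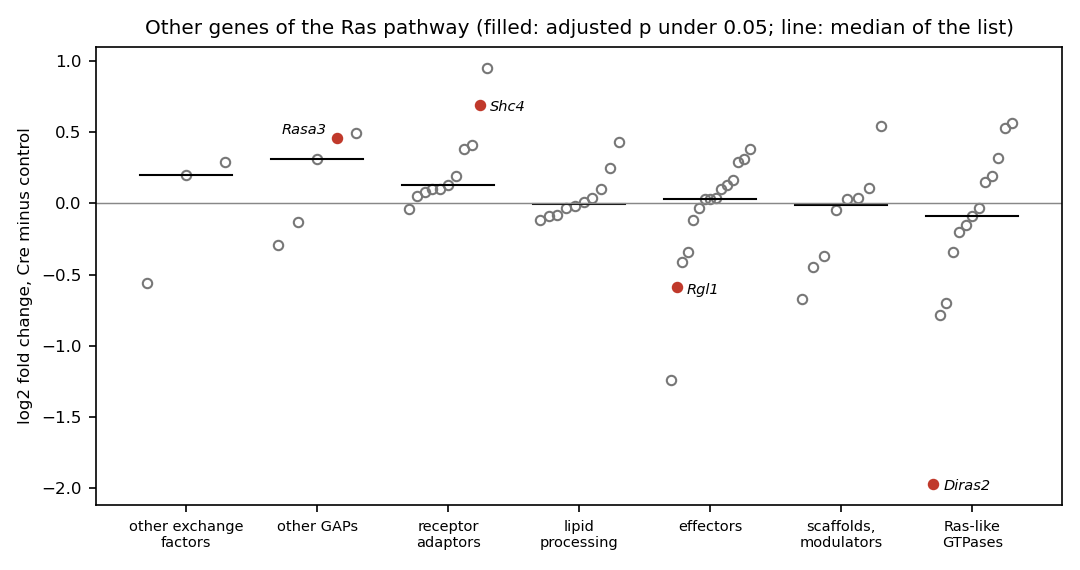
Log2 fold changes (vertical axis, Cre-labelled libraries minus control) of the 65 tested genes of the 7 other lists of the Ras pathway, 1 point per gene, with the median of each list as a line. *Shc4*, *Rasa3*, *Rgl1* and *Diras2* (filled and named) passed an adjusted p of 0.05.

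The genes whose pattern over the 6 libraries was most like that of *Hras* were *1110004F10Rik*, *Sipa1* and *Iqgap1*. They had the smallest root mean square difference of the centred log2 values, 0.0394, 0.0406 and 0.0418, among 11134 genes with a mean of at least 50. *1110004F10Rik* had means of 7176 normalized counts in control and 4754 in the Cre-labelled libraries. *Sipa1* encodes a GAP for the Ras relative Rap and had means of 135 normalized counts in control and 87.2 in the Cre-labelled libraries. *Iqgap1* encodes a scaffold with a GAP-related domain that binds RAF, MEK and ERK, and had 1811 in control and 1162 in the Cre-labelled libraries. For *Mras* they were *Klc4*, *Mir678* and *Nr2f1*, with differences of 0.0391, 0.0488 and 0.0548. *Klc4* had means of 155 in control and 243 in the Cre-labelled libraries, and *Mir678* had 308 and 462. *Nr2f1*, a nuclear receptor that patterns the cortex, had means of 2088 and 3287. These are descriptions over 6 libraries that include the difference between the groups.

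Several markers of glia moved with the groups. Of 9 tested astrocyte markers of 11 listed, 6 were called higher and none lower, while *Aldh1l1* had a log2 fold change of -1.65 (limma adjusted p = 0.065) with groups that did not overlap. Their summed level was from 9209 to 10224 normalized counts in control and from 16061 to 19929 in the Cre-labelled libraries. Of 7 tested oligodendrocyte lineage markers of 12 listed, *Olig2*, *Pdgfra* and *Cspg4* were called higher and none lower, with sums from 12905 to 14835 and from 17822 to 20126. Of 9 tested neuron markers of 15 listed, *Elavl4* was higher and *Gap43* lower, with sums from 17745 to 18872 and from 15311 to 17302. *Map2* and *Gap43* gave most of these sums, so the sums do not describe the other neuron markers. *Gap43* had means of 8711 in control and 5196 in the Cre-labelled libraries. *Map2* had 9210 and 10541, with groups that did not overlap, and did not pass (limma adjusted p = 0.337). *Sox9*, *Olig1* and *Olig2*, which cultured NSCs are also known to express, gave a large part of the glial sums. Of 2 tested endothelial markers of 10 listed, *Eng* was lower, with sums from 117 to 140.4 and from 51.9 to 70.6. The part of these markers in the differences of *Hras* and *Mras* was not tested. In these bulk libraries, fewer cells of a type and less RNA per cell cannot be told apart. Every Cre-labelled library was also the deeper, and depth and group cannot be told apart.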

How the data were processed

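RNA-seq values of 6 libraries of mouse NSCs were used, grouped by the sample titles into 3 control and 3 Cre. The authors deposited normalized counts, a signal per gene and library obtained by dividing the read count by 1 size factor per library. The submitters' processing notes name STAR 2.7, mm10 and DESeq2, while the methods name TopHat with mm9 and mm10, and the counter, strand setting and annotation are not given in the sources used here. The table also holds the authors' own fold changes, statistics and p-values, which were not used. Of 53379 genes, 1 lacks a value in 1 library and was left out, and 873 have no name.

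Whole reads were recovered from the smallest values, with 100% of the values whole to within 0.01. Tests used limma 3.58.1 in R 4.3.3 (lmFit, eBayes with trend) on log2(normalized count + 1), a scale that understates changes of low genes, with a mean of at least 10 and an adjusted p threshold of 0.05. Alternatives were edgeR 4.0.16 (1483 genes called) and DESeq2 1.42.0, both run on those reads, and another pseudocount (0.5 or 5). Others were no filter, a mean of at least 50, 2 other scalings and leaving out each library. Like-numbered libraries were averaged in 1 group at a time, and no fit averaged both pairs. The scripts were tested on simulated data. Exon lengths came from GENCODE M1 (mm9), which may not be the annotation of the counts. Windows of 50 bases of the members' M1 coding transcripts were searched in those of other genes. Coordinates and promoters came from RefSeq (GRCm38.p6), and figures from matplotlib 3.10.9. Genes named were all members, *Tbl1xr1*, pathway genes past the threshold, and for each member past it the 3 genes with the closest pattern and a mean of at least 50. Marker genes, *Ccnh* and *Omg* were named after their values were seen. The members and lists were chosen with earlier results of these data known.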

Additional observations from a re-analysis of the deposited data

How the results depend on the processing

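The count of genes called over all tested genes was 1478, and ran from 558 to 2396 with 1 library left out. It was 660 with control replicates 1 and 1_1 averaged, and 1474 with Cre replicates 2 and 2_2 averaged. The count of members called was 2, ran from 0 (without control replicate 1) to 4 (without Cre replicate 2), and was 1 with control replicates 1 and 1_1 averaged. For the other pathway genes the count was 4, ran from 1 to 8, and was 1 with those replicates averaged. With 1 library left out, log2 fold changes ran from -0.70 to -0.59 for *Hras*, 0.56 to 0.67 for *Mras*, 0.19 to 0.86 for *Nras*, 0.34 to 0.50 for *Grb2* and 0.39 to 0.63 for *Nf1*. *Mras* was 0.60 (limma adjusted p = 0.0525) with control replicates 1 and 1_1 averaged. The sign turned for *Rras2* without Cre replicate 2 (0.03, range -0.25 to 0.03) and for *Sos1* without control replicate 1_1 (0.01) and without Cre replicate 3 (0.03, range -0.15 to 0.03). Under the 16 alternatives the median log2 fold change of all tested genes ran from -0.014 to 0.018. Apart from the values above, no member changed its direction or its side of the threshold under edgeR, DESeq2, another pseudocount, filter or scaling.

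The groups share only 1 replicate number, 2, and no source says that it marks a shared culture. Deviations of control replicate 2 from its group mean correlated at 0.065 with those of Cre replicate 2 and at 0.052 with those of 2_2, across genes. Other pairs of a control and a Cre-labelled library ran wider. They reached -0.204 for control replicate 1_1 with Cre replicate 2 and 0.256 for control replicate 1_1 with Cre replicate 3. A limma fit with the number as a replicate block, chosen after seeing the data, takes the group difference from control replicate 2 against Cre replicates 2 and 2_2 alone and has fewer residual degrees of freedom. With this block 180 genes were called over all tested genes, and 0 members and 0 other pathway genes. The log2 fold change under the block was -0.71 for *Hras* (limma adjusted p = 0.131), 0.59 for *Mras* (0.172) and 0.16 for *Sos1*, whose sign turned. *Rras* and *Rras2* had the fewest reads, 61 to 149 in a library, and what depth limits in their fold changes was not tested. Of the 50-base windows of the members' coding transcripts, 0.672% for *Nras* and none for the other 8 also lie in coding transcripts of another gene. Noncoding and pseudogene transcripts were not searched.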
